A study of Mus musculus with 10 samples.

Results

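The renin-angiotensin system was followed in single-cell RNA counts of mouse kidney cortex through the 6 genes *Ren1*, *Agt*, *Ace*, *Agtr1a*, *Mme* and *Enpep*, out of 28808 genes counted in any library. The 6 genes were taken as a list, whatever their values, and all 6 were detected in all 10 libraries, with 2392 counts (*Agtr1a*) to 7127 counts (*Enpep*) over all cells kept. The series, on acute kidney injury, compares normal with injured kidneys by Drop-seq, in which the RNA of single cells is captured on barcoded microbeads in droplets. The control group was kidney cortex of normal mice (1 library). The injured groups were kidney cortex at day 1, day 2 and day 4 (1 library each) and at day 7, day 11 and day 14 (2 libraries each). Every group is labelled as 4 weeks of age. The kind of injury, the strain and the sex are not stated in the labels, nor whether the 2 libraries of a day came from different animals. The p-values thus rest on the spread between libraries, which may be technical, and in the edgeR tests that spread is partly pooled over genes.

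Renin, made by juxtaglomerular cells in the wall of the afferent arteriole, cuts angiotensinogen to angiotensin I. Angiotensin-converting enzyme turns angiotensin I into angiotensin II, which raises vascular tone and sodium reabsorption through the AT1 receptor. Aminopeptidase A (*Enpep*) and neprilysin (*Mme*) break these peptides down or divert them to other active fragments, and the kidney is known to make every component of this cascade locally.

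The genes lie on mm10 at chr1:133350510-133360325 (*Ren1*, plus strand), chr8:124556534-124569706 (*Agt*, minus strand) and chr11:105967945-105989964 (*Ace*, plus strand). The receptor and the peptidases lie at chr13:30336441-30382867 (*Agtr1a*, plus strand), chr3:63241537-63386030 (*Mme*, plus strand) and chr3:129269175-129332720 (*Enpep*, minus strand). All are annotated as protein coding, and the values are sums over each gene's transcripts. *Ace* overlaps the antisense transcript Gm11651, *Agtr1a* the intronic transcript Gm48161 and *Enpep* the pseudogene Gm42628 on the opposite strand, and the strand setting of the counting is not given in the sources used here. The tables held no *Ren2*, the near-identical copy of renin that some strains carry. This does not show that the mice lacked it, as neither the strain nor the annotation used for counting is given. Reads of such a copy could have been counted as *Ren1*.

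The 100 bases before the transcription start are shown for the genes of the enzyme, the substrate and the converting enzyme that form angiotensin II, from RefSeq (GRCm38.p6), each read 5′ to 3′ on the gene's strand. The RefSeq starts of *Ren1* and *Ace* lie inside the annotated gene spans given above, so that the *Ren1* stretch lies wholly and the *Ace* stretch partly within its span. Capitals mark the letters TATAAA, the core of a TATA box, or the same letters read from the other strand (TTTATA).
Ren1, chr1:133350574-133350673, plus strand: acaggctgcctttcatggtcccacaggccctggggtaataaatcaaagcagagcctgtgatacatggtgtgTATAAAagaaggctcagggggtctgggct
Agt, chr8:124569707-124569806, minus strand: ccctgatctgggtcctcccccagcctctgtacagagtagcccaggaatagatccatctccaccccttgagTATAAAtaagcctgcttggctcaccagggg
Ace, chr11:105967848-105967947, plus strand: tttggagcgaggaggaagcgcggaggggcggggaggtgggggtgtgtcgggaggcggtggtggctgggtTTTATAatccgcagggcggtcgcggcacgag
The match began 29 bases before the start in *Ren1* and 30 bases before it in *Agt*, on the gene's strand. In *Ace* it lay 31 bases before the first of its 2 listed starts and read TATAAA only from the other strand. TATAAA on either strand occurred in 13.6% of the 32851 listed promoters (from 250 bases before to 50 after the start), and on the gene's strand within 50 bases before the start in 2.63%. *Enpep* had 2 matches on the other strand, and the 3 listed starts of *Mme* had none, with a GC content of 46.0%, 73.0% and 72.3% against a median of 52.7% over all listed promoters. A match is a description of letters and not of a working site.

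The tables held 64803 barcodes and 173806985 counts, from 7091848 to 31632205 per library. The counts were read as unique molecular identifiers (UMIs, 1 per captured molecule), which the labels do not state. A cell was used if it had 500 or more UMIs, 500 or more genes and no more than 50% mitochondrial UMIs, and 52797 cells with a median of 1244 to 2661.5 UMIs per library passed. Any pair of libraries shared at most 4 barcodes. Each cell was placed in 1 of 13 classes by the UMIs of fixed marker genes, with at least 2 distinct markers of its class and at least 2 times the marker UMIs of any other class. This placed 44082 cells, and each class was highest in its own markers, by 7.16-fold (mural) or more over the next class. The gate chose the cells by these same markers, so that this is no separate check of the classes. Both day 7 libraries stood apart in make-up: 8.56% and 9.24% of their cells were in the proximal tubule class, against 16.9% to 74.5% elsewhere, and 23.6% and 26.2% were macrophages. Cells in no class (ungated) were 6.52% in the control, 45.6% at day 1, 17.7% at day 2 and 30.0% at day 4. Their share was 37.2% and 26.1% at day 7, 7.14% and 5.26% at day 11, and 5.36% and 5.05% at day 14. The part of these shares in the changes by day was not tested. CPM below are a gene's UMIs over all UMIs of the class sum in a library, in the usual unit of parts per 10 to the power of 6, and TMM-scaled CPM are the same values after edgeR's scaling factors.

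The 6 genes had distinct places in the cortex. Among the gated classes, *Ren1* was a gene of mural cells (smooth muscle, pericytes and juxtaglomerular cells). Within the same classes *Agtr1a* was one of mural and then endothelial and proximal tubule cells, and *Agt* and *Ace* of the proximal tubule. *Enpep* was highest in podocytes, the filtering cells of the glomerulus, and *Mme* in podocytes and intercalated cells, with less in the thick limb and much less in the proximal tubule. Of 72 pairs that set the class expected from textbook knowledge against another class, the expected class was higher in 45 and lower in 5 (exact sign-flip tests over libraries on log2(CPM + 10), Benjamini-Hochberg adjusted over the 72 pairs). The pairs with injured tubule, fibroblasts and neutrophils are among the 72 but could not be called. Their few libraries allow no sign-flip p below 0.0625 (5 libraries) or 0.5 (2 libraries). The orders of classes below rank only the 10 classes with sums of at least 20000 UMIs in 7 or more libraries. Injured tubule and fibroblasts (5 libraries each) and neutrophils (2 libraries) were left out of the orders, and their means are given beside them.

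**Figure D1:**
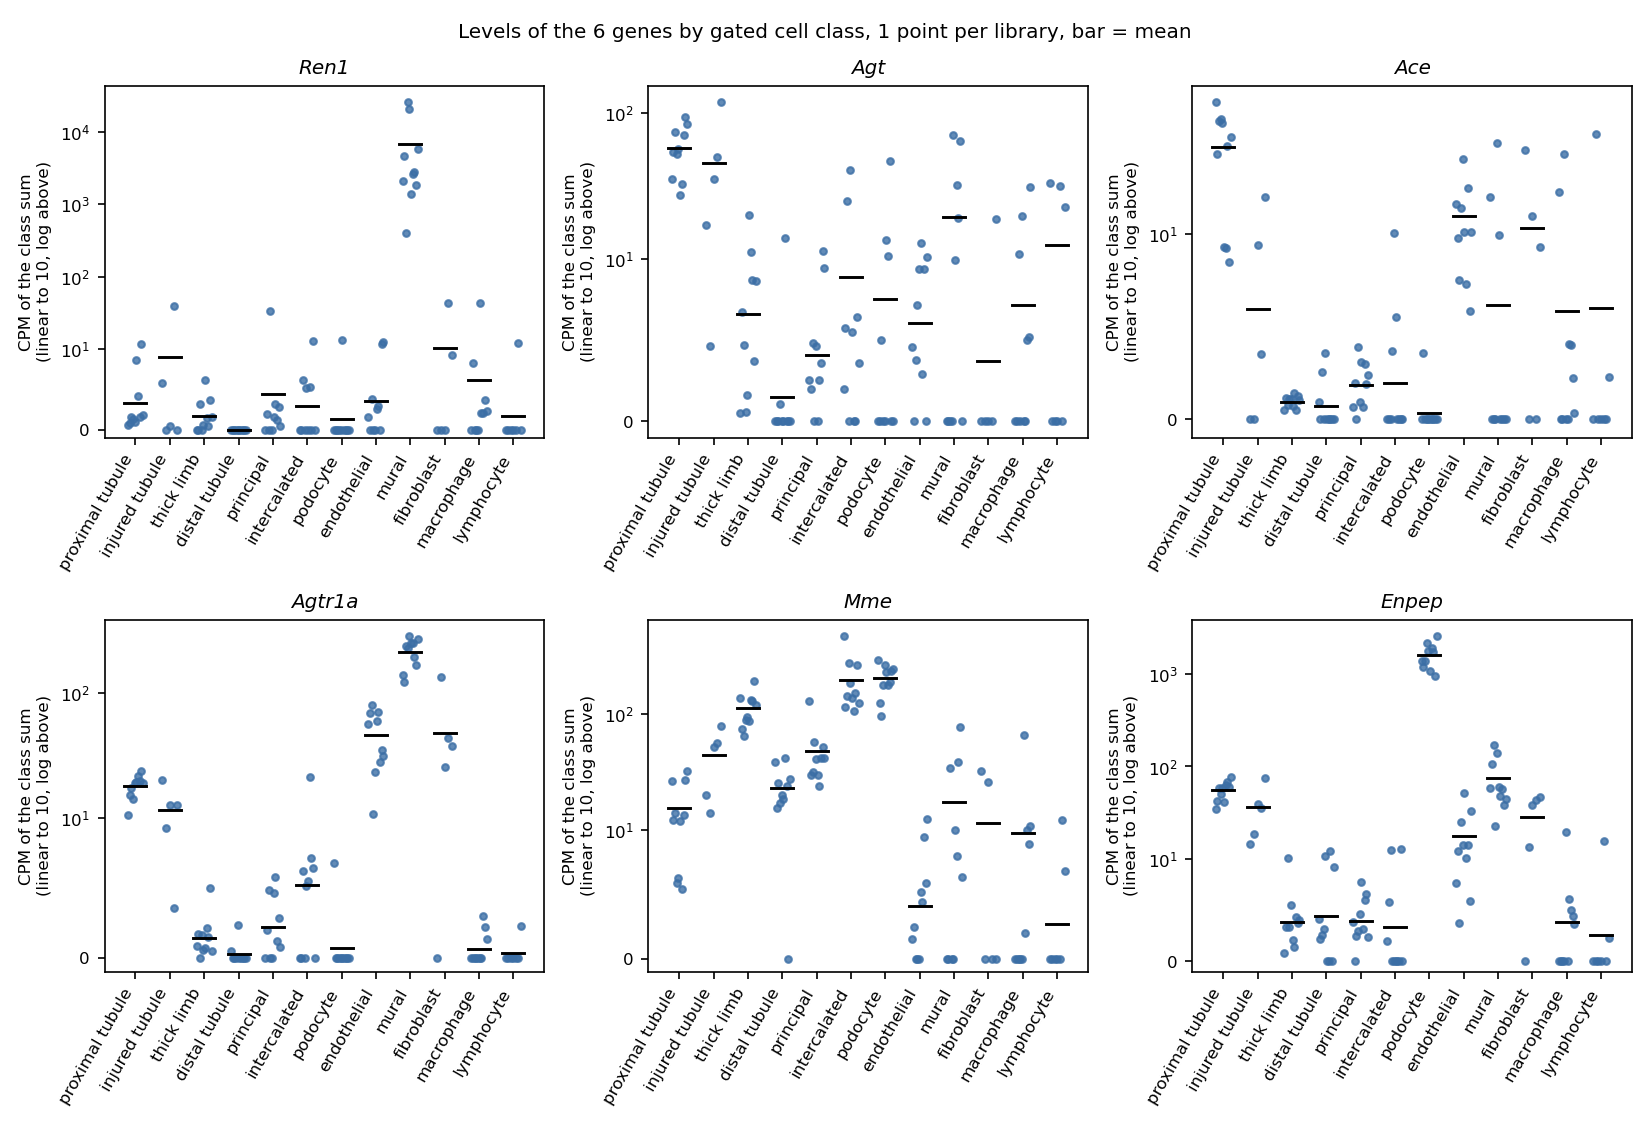
Level of each gene (CPM of the class sum, linear to 10 and logarithmic above) in each gated class, 1 point per library with a class sum of at least 20000 UMIs, and the mean as a bar. *Ren1* stands at a mean of 6827 CPM in mural cells and at most 6.19 in classes with at least 7 libraries, *Enpep* at 1615 in podocytes, and *Mme* at 202 in podocytes and 197 in intercalated cells against 15.5 in the proximal tubule.

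Renin was counted mainly in mural-gated cells. *Ren1* stood there at a mean of 6827 CPM over 10 libraries, against 6.19 in the next ranked class, macrophages (higher in 10 of 10 libraries, exact sign-flip test, adjusted p = 0.0176 over 54 tests of neighbouring classes). Of the unranked classes, neutrophils had a mean of 16.6 CPM, fibroblasts 10.5 and injured tubule 9.02. Mural cells were higher in 9 of 12 pairs and lower in none. The other 3 pairs were with classes present in 2 to 5 libraries, for which the test cannot reach 0.05. *Akr1b7*, known from renin cells, was among the 11 mural markers, and the gate was repeated without it. The *Ren1* UMIs of the class stayed the same in 9 of 10 libraries, while in day 14 replicate 1 they went from 1130 to 160, and its share of that library's *Ren1* UMIs from 95.2% to 13.5%. With *Akr1b7*, mural cells held between 41.4% and 97.8% of a library's *Ren1* UMIs, with a median of 85.4%.

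A few cells carried most of the renin. Of 52797 cells, 41 had at least 10 *Ren1* UMIs, and these held 90.3% of the 4855 *Ren1* UMIs. Of the 41 cells, 36 were in the mural class and 5 outside it, 3 of them ungated. In the mural class at most 29.7% of a library's cells had any *Ren1* UMI, and the class itself was small, at 22 to 102 cells per library and 549 in all. A single cell held 879 of the 967 *Ren1* UMIs of day 7 replicate 2, 970 of 1187 in day 14 replicate 1 and 576 of 611 in day 14 replicate 2. In those 3 cells *Ren1* made up 27.2%, 44.2% and 41.1% of all UMIs of the cell. Day 11 replicate 2 held 29 *Ren1* UMIs and no cell with 10 or more.

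**Figure D2:**
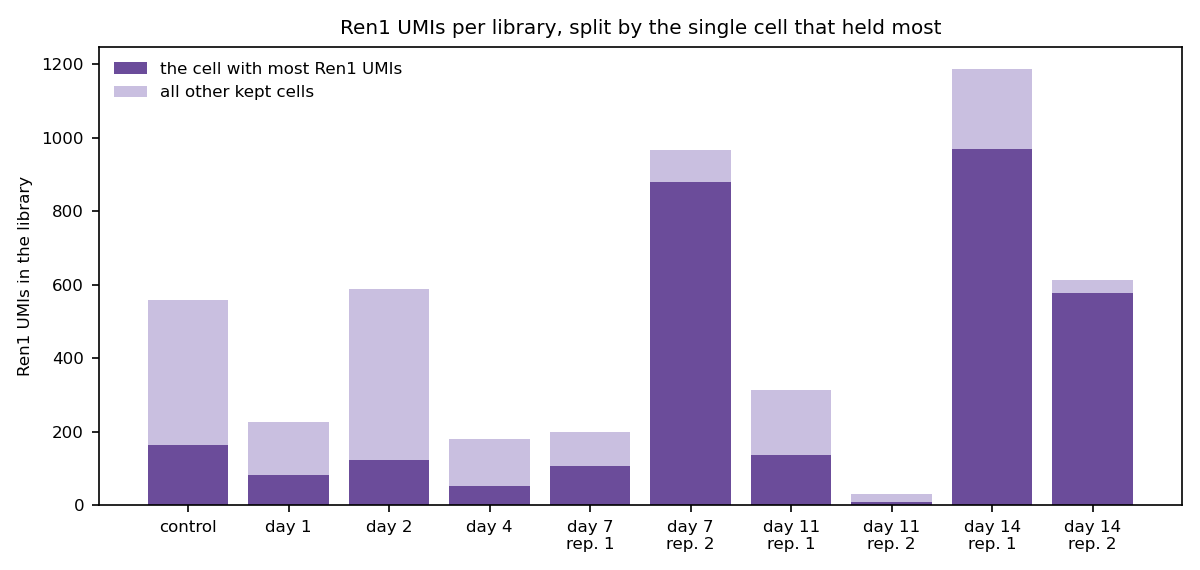
*Ren1* UMIs in each library, with the dark part of each bar for the cell that held most. The dark part is 29.0% of the control's 558 UMIs, and it is 90.9% in day 7 replicate 2, 81.7% in day 14 replicate 1 and 94.3% in day 14 replicate 2.

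Over time, *Ren1* in mural-gated cells was 2092 CPM in the control, 1393 at day 1, 2609 at day 2 and 2765 at day 4, 1865 and 5840 in the libraries of day 7, 4660 and 407 at day 11, and 25730 and 20910 at day 14. The day 14 libraries lay above all 8 others. With the mural gate without *Akr1b7*, day 14 replicate 1 was at 3835 CPM, below day 7 replicate 2 and day 11 replicate 1 (5939 and 4823 CPM). The log2 change was 3.09 from day 11 to day 14 (SE 0.66, edgeR quasi-likelihood test, adjusted p = 0.151) and 3.36 from control to day 14 (SE 0.88, adjusted p = 0.278). Neither passed the threshold of 0.05, and no gene of the 2780 tested did in these mural-gated comparisons (0% called with edgeR, with 248 and 172 genes at an unadjusted p under 0.05 and 0 by DESeq2 in each).

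The levels of day 14 and of day 7 replicate 2 rested on single cells. Without the cell with the most *Ren1* UMIs in each library, the level was 3835 and 631 CPM at day 14, 518 and 290 at day 7, 2623 and 139 at day 11, 593 at day 1, 1653 at day 2, 1824 at day 4 and 1427 in the control. The log2 change from day 11 to day 14 was then 0.54 (edgeR quasi-likelihood test, adjusted p = 0.866) and that from control to day 14 was 0.57 (adjusted p = 0.978). Over all alternatives the first ranged from 0.54 to 5.99, with adjusted p from 5.54e-15 to 1, and the second from 0.57 to 3.51, with adjusted p from 2.49e-15 to 1. From control to day 7 (0.71, adjusted p = 0.900) and from day 7 to day 11 (-0.44, adjusted p = 0.819) the sign itself turned when that cell was left out, to -1.99 and 2.02.

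Angiotensinogen, the only known precursor of the angiotensins, was a proximal tubule transcript. *Agt* had a mean of 58.0 CPM in proximal-gated cells against 19.5 in the next ranked class, mural cells (higher in 9 of 10 libraries, exact sign-flip test, adjusted p = 0.0316). Below these, neighbouring ranked classes did not differ beyond the spread between libraries. The unranked injured tubule class stood between them, at a mean of 45.1 CPM over 5 libraries. Its difference from proximal cells did not pass (proximal higher by 0.63 on the log2 scale, in 4 of 5 libraries, exact sign-flip test, adjusted p = 0.218), and 5 libraries cannot give a p below 0.0625. The proximal class held 19.7% to 99.2% of a library's *Agt* UMIs.

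In proximal-gated cells *Agt* stood at 46.3 TMM-scaled CPM in the control, 22.9 at day 1, 30.3 at day 2 and 61.2 at day 4. It was 66.0 and 65.2 at day 7, 65.7 and 88.1 at day 11 and 63.0 and 66.8 at day 14. All 6 libraries from day 7 on lay above the control, while days 1 and 2 lay below it. None of the 4 comparisons of replicated days and control passed the test. Day 14 against control gave a log2 change of 0.49 (SE 0.23, edgeR quasi-likelihood test, adjusted p = 0.199).

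The proximal tubule was also split by transporters of its segments, after the data had been seen. Cells with *Slc7a13* or *Slc22a30*, of the straight part, were called straight-type and cells with *Slc5a2* or *Slc5a12*, of the convoluted part, convoluted-type, leaving out cells with both or neither. In straight-type cells *Agt* was 52.8 TMM-scaled CPM in the control (405 UMIs) and 83.7 and 104.9 at day 14 (581 and 536 UMIs). There *Agt* rose by 0.83 on the log2 scale (SE 0.27, edgeR quasi-likelihood test, adjusted p = 0.0156, in a comparison in which 19.3% of genes were called). The call was lost without day 14 replicate 2 and with DESeq2 (adjusted p at most 0.631). In convoluted-type cells *Agt* was 40.6 TMM-scaled CPM in the control and 24.1 and 22.8 at day 14 (log2 change -0.79, edgeR quasi-likelihood test, adjusted p = 0.541). The difference between the segments' changes was not tested. From control to day 7 *Agt* in straight-type cells rose by 1.60 (SE 0.35, edgeR quasi-likelihood test, adjusted p = 0.000259, where 8.95% of genes were called), from 0 UMIs in 11 cells of replicate 1 and 64 UMIs (196 TMM-scaled CPM) in 84 cells of replicate 2. The call rested on replicate 2, without which no *Agt* UMI was left in day 7 (adjusted p = 0.387 with edgeR's quasi-likelihood test), and it was also lost with DESeq2 (adjusted p = 0.556).

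*Agt* was also counted in thick limb-gated cells, a segment that reabsorbs salt. There were 3 UMIs (0.495 CPM) in the control, 29 at day 1 (19.9 CPM), 16 at day 2 (11.2 CPM) and 18 at day 4 (8.70 CPM). Day 7 had 3 and 17 UMIs (3.72 and 8.65 CPM), day 11 had 12 and 6 (6.73 and 4.70 CPM), and day 14 had 1 and 3 (0.551 and 1.65 CPM). The libraries of days 1 to 11 thus stood at 3.72 to 19.9 CPM, above the control, and those of day 14 near it. From control to day 7 *Agt* rose by 3.02 on the log2 scale (SE 0.84, edgeR quasi-likelihood test, adjusted p = 0.0146, where 22.2% of genes were called). That call was lost in 5 of 16 alternatives. These were the stricter gates (at least 3 distinct markers, or mixed cells left out), leaving out day 7 replicate 2, DESeq2, and fitting only these groups. The log2 change in proximal-gated cells was 0.50, and proximal minus thick limb gave a difference of -2.64 (SE 0.82, edgeR quasi-likelihood test, adjusted p = 0.0297, where 15.8% of genes were called), a call lost without day 7 replicate 2 or day 14 replicate 1. With so few UMIs the control level is known only to between 0.102 and 1.45 CPM (exact 95% Poisson interval, counting error only). Proximal markers in thick limb-gated cells went from 373 CPM in the control to 78.2 and 42.8 at day 7 (all 12 markers detected in the control and 10 to 12 at day 7) and were 609 and 1110 at day 11. Markers of injured tubule, a class that also held *Agt*, went the other way in the same cells. They were at 0 in the control (0 of 6 detected), 233 CPM at day 1, 21.6 at day 2, 100.005 at day 4, 145 and 47.9 at day 7 (6 of 6 detected), and 0.551 to 2.199 at days 11 and 14 (1 of 6). The part of either list in the *Agt* result was not tested.

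The injured tubule class, gated on *Havcr1* and other injury genes, held cells only in the 5 libraries of days 1 to 7, and *Agt* was counted there too. Its level was 17.2 CPM at day 1, 4.66 at day 2, 35.1 at day 4, and 49.6 and 118.9 at day 7.

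Angiotensin-converting enzyme was the gene that fell furthest at day 7. *Ace* had a mean of 33.6 CPM in proximal-gated cells and 12.8 in endothelial cells (higher in 9 of 10 libraries, exact sign-flip test, adjusted p = 0.0264), with 5.85 to 28.2 CPM per library in the latter. Unranked neutrophils had a mean of 12.97 CPM and fibroblasts 10.8. Thick limb-gated cells held 0.483 to 1.39 CPM and podocytes a mean of 0.356.

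In proximal-gated cells *Ace* was 82.2 TMM-scaled CPM in the control, 7.79 at day 1, 8.56 at day 2 and 29.5 at day 4. It was 5.997 (5 UMIs) and 30.1 (65 UMIs) at day 7, 36.9 and 57.0 at day 11, and 58.9 and 55.3 at day 14. The control was the highest library, and the 2 libraries of day 7 lay far apart, on either side of days 1 and 2.

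From control to day 7 *Ace* fell by 1.93 on the log2 scale (SE 0.44, edgeR quasi-likelihood test, adjusted p = 0.00777). It was the only one of the 6 genes that passed in this comparison, in which 26.6% of all genes did. The change ranged from -3.77 without day 7 replicate 2 to -1.45 without day 7 replicate 1, and with scaling by total UMIs alone it was -1.14 and no longer passed (adjusted p = 0.0551). That scaling moved the median change of all genes to 0.82, from 0.02 with TMM, and the share of calls that were higher to 90.8% from 47.8%. Under it *Agt* (1.32), *Agtr1a* (0.95), *Enpep* (1.02) and *Ren1* were called higher in place of *Ace*.

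From day 7 to day 11 the change in *Ace* was 1.13 (SE 0.40, edgeR quasi-likelihood test, adjusted p = 0.0552), and none of the 6 genes passed in proximal-gated cells, where 29.2% of genes did. At an unadjusted p under 0.05 there were 2 (*Ace* and *Mme*), and DESeq2 called 0. *Ace* was called in 5 of 17 alternatives, one of them with replicate numbers as a block. At day 14 *Ace* was -0.53 against control (SE 0.37, edgeR quasi-likelihood test, adjusted p = 0.402), which did not pass.

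Proximal-gated cells of day 7 differed from the control's in more than *Ace*. Their own markers stood at 7787 and 10728 CPM against 17128 in the control, markers of injured tubule at 457 to 1060 CPM (6 of 6 detected) against 2.89 (3 of 6), and macrophage markers at 135 to 214 CPM (6 of 7) against 10.04 (6 of 7). The part of these values in the *Ace* result was not tested.

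The straight-type share of proximal-gated cells also varied between libraries. It was 53.8% in the control, 4.31% at day 1, 2.39% at day 2, 16.3% at day 4, 3.55% and 17.6% at day 7, 50.4% and 58.4% at day 11, and 46.6% and 37.9% at day 14. In the control, straight-type cells held 10544558 UMIs and convoluted-type cells 836951. A cell's type rests on which segment transporters were detected in it, and the part of depth and of transporter levels in these shares was not tested. *Ace* had a mean of 45.3 CPM in straight-type and 11.7 CPM in convoluted-type cells (higher in 8 of 10 libraries, exact sign-flip test, p = 0.0273, adjusted p = 0.0820 over the 6 genes). Within straight-type cells it was 100.4 TMM-scaled CPM in the control, 21.9 at day 2 (4 UMIs), 57.0 at day 4, 45.9 and 72.5 at day 11, and 78.9 and 79.6 at day 14. Day 7 replicate 2 stood at 64.2 (21 UMIs), and day 1 and day 7 replicate 1 had no *Ace* UMI in straight-type cells, which with 68620 and 24213 UMIs in all allows up to 43.7 and 124 CPM before scaling (3 counts). The 8 injured libraries other than day 7 replicate 1 lay below the single control library. The limit of day 7 replicate 1 exceeds the control's level when both are taken before scaling. After TMM scaling it does not, with factors of 1.80 for that library and 0.728 for the control. Within convoluted-type cells *Ace* was 11.6 TMM-scaled CPM in the control and 8.72 and 13.4 at day 7. Neither segment's *Ace* passed from control to day 7 (straight-type -0.86, adjusted p = 0.188, and convoluted-type 0.01, adjusted p = 0.995, where 16.4% of genes were called, edgeR's quasi-likelihood test). The part of the segment share in the fall of *Ace* was not tested.

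**Figure D3:**
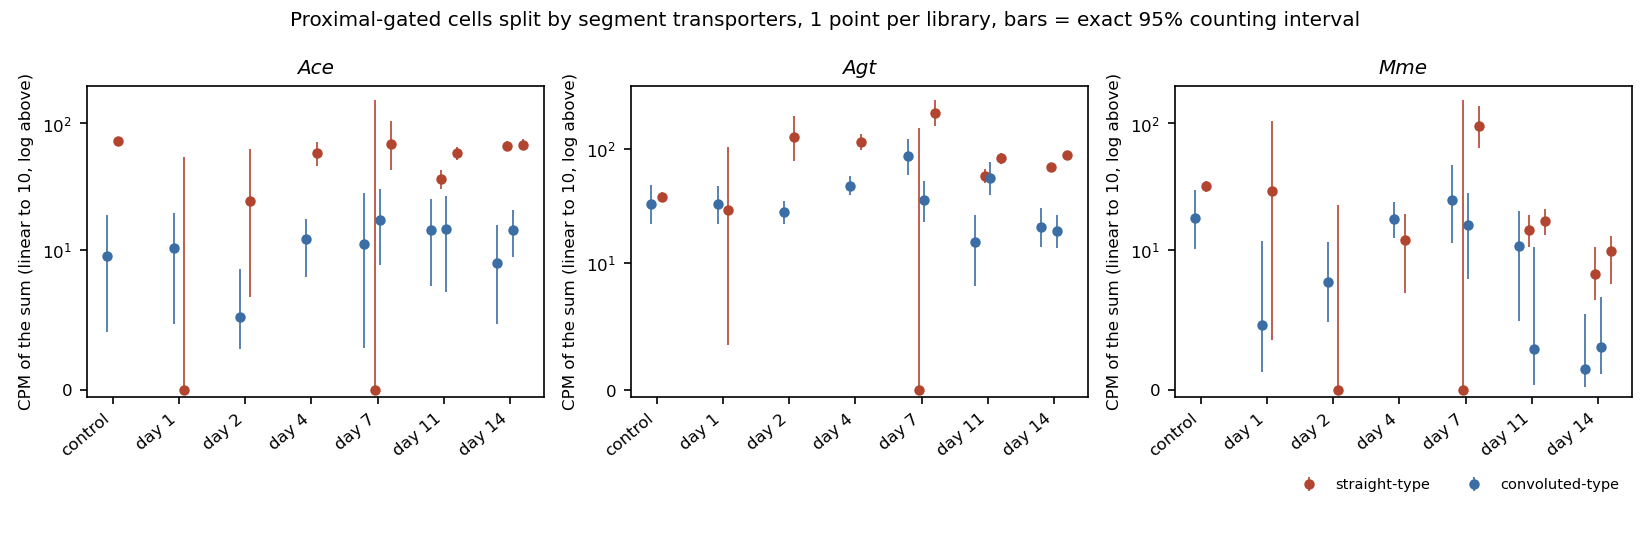
*Ace*, *Agt* and *Mme* in straight-type and convoluted-type proximal cells (CPM of the sum before TMM scaling, linear to 10 and logarithmic above), 1 point per library with its exact 95% counting interval. Straight-type *Ace* is 73.0 in the control, 36.2 and 57.8 at day 11 and 66.3 and 68.0 at day 14, convoluted-type *Ace* stays at 5.21 to 17.2, and *Mme* at day 14 is below the control in both.

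Among the gated classes, the AT1 receptor gene *Agtr1a* was highest in mural cells, at a mean of 213 CPM. Among the ranked classes endothelial cells followed at 46.2 (mural higher in 10 of 10 libraries, exact sign-flip test, adjusted p = 0.0176), then proximal-gated cells at 18.0 (endothelial higher in 9 of 10, adjusted p = 0.0316) and intercalated cells at 5.18 (proximal higher in 10 of 10, adjusted p = 0.0176). Each step of this order was thus larger than the spread between libraries down to the intercalated cells, below which neighbouring ranked classes did not differ beyond it. Unranked fibroblasts had a mean of 47.9 CPM, with 0 to 133 per library, neutrophils 21.3 and injured tubule 11.7.

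In mural cells *Agtr1a* was 138 CPM in the control and 122 to 282 CPM in the 9 injured libraries, and no comparison passed, where 1.94% of genes were called at day 7 and 2.55% from day 7 to day 11. In proximal-gated cells it was 14.04 TMM-scaled CPM in the control and 14.8 to 22.7 in the injured libraries, with a log2 change of 0.50 at day 14 (SE 0.24, edgeR quasi-likelihood test, adjusted p = 0.223). It was lower in straight-type (12.4 CPM) than in convoluted-type cells (20.7 CPM) in all 10 libraries (exact sign-flip test, adjusted p = 0.0117).

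In endothelial cells *Agtr1a* was 58.7 TMM-scaled CPM in the control, 58.0 at day 1, 76.2 at day 2 and 26.4 at day 4. It was 31.0 and 28.3 at day 7, 74.5 and 85.1 at day 11, and 10.9 and 23.9 at day 14, from 3 to 48 UMIs per library. Day 11 lay above day 7 and day 14 with no overlap. It rose by 1.41 on the log2 scale from day 7 to day 11 (SE 0.41, edgeR quasi-likelihood test, adjusted p = 0.0282, where 8.76% of genes were called) and fell by 2.23 from day 11 to day 14 (SE 0.49, adjusted p = 0.00755, where 3.92% were). The rise was called in 7 of 15 alternatives, and not without any 1 of the 4 libraries of days 7 and 11, and the fall in 13 of 15, the exceptions being without day 14 replicate 1 and with DESeq2. Markers of other classes moved in the same cells. Between days 7 and 11 proximal markers went from 112 to 246 CPM (8 to 9 of 12 detected) to 912 to 1397 (12 of 12), macrophage markers from 135 to 380 (6 of 7) to 29.3 to 37.7 (5 of 7), injured tubule markers from 49.8 to 228 (5 to 6 of 6) to 0 to 3.77 (0 to 1 of 6) and mural markers from 164 to 293 (9 to 10 of 11) to 108 to 192 (6 to 7 of 11). From day 11 to day 14 mural markers went to 46.7 to 122 (5 to 7 of 11), and fibroblast markers from 53.8 to 56.5 (5 of 7) to 14.4 to 18.8 (1 to 2 of 7). Mural and fibroblast cells hold *Agtr1a*, and the part of any of these lists in the rise and the fall was not tested.

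Cells outside every class held between 8.43% and 51.1% of a library's *Agtr1a* UMIs, with a median of 21.7%. The highest share was 55.9% for *Agt*, 53.6% for *Ace*, 51.8% for *Enpep*, 44.9% for *Mme* and 36.3% for *Ren1*. The medians of these genes were 4.73% (*Enpep*) to 14.9% (*Mme*). Among ungated cells, those with a UMI of *Itga8*, a mesangial integrin chosen after the values had been seen, held 418 CPM in the control against 4.29 in those without. The mural class had a mean of 213 CPM, with 122 to 282 per library. The levels with *Itga8* were 146 CPM at day 1, 293 at day 2 and 423 at day 4. They were 236 and 123 CPM at day 7, 637 and 655 at day 11, and 282 and 497 at day 14, from 8 to 73 UMIs per library. In all 10 libraries ungated cells without *Itga8* were lower, at 2.42 to 12.4 CPM. As in endothelial cells, both day 11 libraries lay above those of days 7 and 14, and these levels were not tested.

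Neprilysin was the gene with the clearest lasting difference. *Mme* stood at a mean of 202 CPM in podocytes and 197 in intercalated cells, which did not differ beyond their spread. Thick limb cells followed at 112 (intercalated higher in 9 of 10 libraries, exact sign-flip test, adjusted p = 0.0479) and principal cells at 47.6 (thick limb higher in 10 of 10, adjusted p = 0.0176). The proximal tubule, the class expected from its brush border, stood at 15.5, with distal tubule cells at 22.9. Unranked injured tubule had a mean of 44.2, above proximal cells in 5 of 5 libraries (proximal minus injured -0.88 on the log2 scale, exact sign-flip test, adjusted p = 0.0763). Against the other 12 classes the proximal tubule was higher in 2 pairs and lower in 4 (podocyte, intercalated, thick limb and principal cells).

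In proximal-gated cells *Mme* was 34.9 TMM-scaled CPM in the control, 9.87 at day 1, 5.03 at day 2 and 11.7 at day 4. It was 19.2 and 24.98 at day 7, 14.8 and 16.7 at day 11, and 7.09 and 7.41 at day 14. All 9 injured libraries lay below the control, and those of day 14 lay below every library but day 2. Against control *Mme* fell by 2.27 on the log2 scale at day 14 (SE 0.23, edgeR quasi-likelihood test, adjusted p = 0.000711), the only one of the 6 genes to pass where 8.95% of all genes did. It passed in all 17 alternatives, from -2.43 to -2.11, and the control is a single library in each.

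Between days 11 and 14 *Mme* fell by 1.12 (SE 0.21, edgeR quasi-likelihood test, adjusted p = 0.00776), again as the only one of the 6, where 10.8% of all genes were called. That call was lost without day 11 replicate 2 (adjusted p = 0.0831), day 14 replicate 1 (0.0667) or day 14 replicate 2 (0.0537). At day 7 against control *Mme* was -0.61 (SE 0.26, edgeR quasi-likelihood test, adjusted p = 0.105), which did not pass.

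In both segments *Mme* at day 14 lay below the control, and the fall passed in the straight type. In straight-type cells *Mme* was 43.5 TMM-scaled CPM in the control (334 UMIs) and 9.80 and 11.5 at day 14 (68 and 59 UMIs), a fall of 2.03 on the log2 scale (SE 0.27, edgeR quasi-likelihood test, adjusted p = 1.17e-10). DESeq2 alone, of 13 alternatives, did not call it (adjusted p = 0.0878). In convoluted-type cells it was 21.7 TMM-scaled CPM in the control (15 UMIs) and 1.72 and 3.596 at day 14 (2 and 6 UMIs), with a log2 change of -2.91 (SE 0.77, edgeR quasi-likelihood test, adjusted p = 0.0889), where 1.09% of genes were called. Day 7 replicate 2 stood apart in straight-type cells, at 88.7 TMM-scaled CPM from 29 UMIs. From day 11 to day 14 *Mme* fell there by 0.88 (SE 0.27, edgeR quasi-likelihood test, adjusted p = 0.0125, where 14.1% of genes were called). That call was lost without day 11 replicate 2, without either day 14 library and with DESeq2 (adjusted p at most 0.614). From day 7 to day 11 it fell by 1.94 (edgeR quasi-likelihood test, adjusted p = 0.000143, where 6.11% of genes were called), a call that rested on day 7 replicate 2.

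In thick limb-gated cells *Mme* was 168 TMM-scaled CPM in the control, 85.3 at day 1, 116 at day 2 and 109 at day 4. It was 145 and 92.6 at day 7, 85.6 and 73.5 at day 11, and 106 and 114 at day 14. The control was again highest, but day 14 lay above day 11. The log2 change at day 14 against control was -0.61 (SE 0.26, edgeR quasi-likelihood test, adjusted p = 0.240), in a comparison in which 1.59% of genes were called.

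The change differed between the 2 tubule classes. In a fit over both classes with the library as a block, the log2 change of *Mme* at day 14 against control was lower in proximal than in thick limb cells by a difference of -1.60 (SE 0.25, edgeR quasi-likelihood test, adjusted p = 0.000919), where 1.60% of 13065 genes were called. It held in 7 of 7 alternatives, which were scaling by total UMIs and leaving out 1 library of day 7, 11 or 14 at a time. DESeq2, RLE scaling and other gates were not tried for this fit, and the control is a single library in each. From day 11 to day 14 the difference was -1.58 (SE 0.26, edgeR quasi-likelihood test, adjusted p = 0.00328), where 0.995% were called, and it was lost without day 11 replicate 2 or day 14 replicate 2. Markers of the thick limb stood in proximal-gated cells at 217 CPM in the control, 139 to 146 at day 11 and 107 to 119 at day 14 (6 of 6 detected), and those of intercalated cells at 34.3, 27.9 to 31.2 and 19.9 to 27.1. Both classes have more *Mme* than proximal cells, and the part of these values in the fall was not tested.

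**Figure D4:**
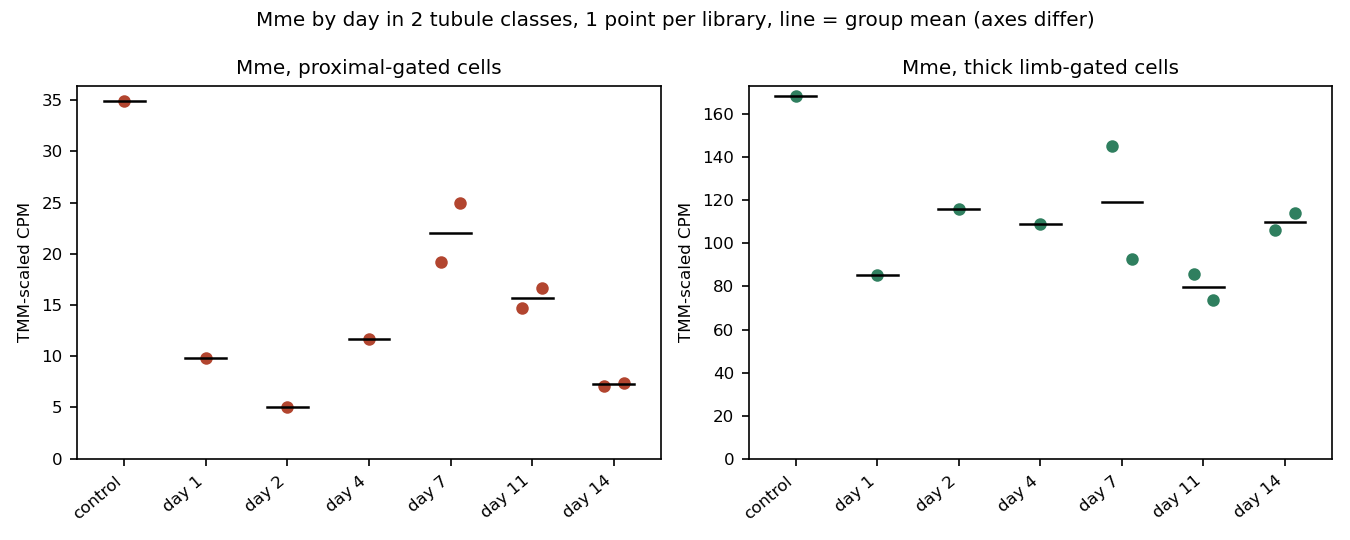
*Mme* in proximal-gated (left) and thick limb-gated cells (right) in TMM-scaled CPM, 1 point per library with the group mean as a line, each panel with its own axis from 0. Proximal cells go from 34.9 in the control to 7.09 and 7.41 at day 14, and thick limb cells from 168 to 106 and 114.

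In podocytes *Mme* was 315 TMM-scaled CPM in the control and 101 to 264 in the injured libraries, from 4 to 43 UMIs. No comparison passed there, where 1.56%, 3.93%, 2.83% and 0.532% of 3005 genes were called (day 7 against control, day 11 against day 7, day 14 against day 11 and day 14 against control). In intercalated cells it was 468 CPM in the control, above the 107 to 275 CPM of all 9 injured libraries. That class was fitted in no model, and its order is given without a test. The injured tubule class held 20.1 CPM at day 1, 13.99 at day 2, 51.9 at day 4, and 56.6 and 78.6 at day 7. At day 14 endothelial cells and macrophages held no *Mme* UMI, which allows at most 14.1 and 90.8 CPM in the smaller sums.

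Aminopeptidase A, which trims angiotensin II to angiotensin III, was above all a podocyte gene. *Enpep* had a mean of 1615 CPM there, from 945 to 2578 per library, against 74.6 in mural cells (higher in 10 of 10, exact sign-flip test, adjusted p = 0.0176). Proximal-gated cells followed at 55.4, not distinct from mural cells (adjusted p = 0.844) and above endothelial cells at 17.8 (higher in 9 of 10, adjusted p = 0.0264). Unranked neutrophils had a mean of 39.7 CPM, injured tubule 36.4 and fibroblasts 28.4. Proximal cells held a median of 56.5% of a library's *Enpep* UMIs, and podocytes 24.1%.

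In proximal-gated cells *Enpep* was 45.7 TMM-scaled CPM in the control, 34.3 at day 1, 58.8 at day 2 and 58.6 at day 4. It was 42.0 and 60.1 at day 7, 51.3 and 70.3 at day 11, and 60.9 and 69.1 at day 14. The libraries of day 14 lay above the control, and those of day 7 on either side of it. No comparison passed, with a log2 change of 0.51 at day 14 against control (SE 0.26, edgeR quasi-likelihood test, adjusted p = 0.235). In straight-type cells *Enpep* was 41.97 TMM-scaled CPM in the control and 107 in day 7 replicate 2 (35 UMIs), with 1 UMI in replicate 1. It rose there by 1.16 from control to day 7 (SE 0.38, edgeR quasi-likelihood test, adjusted p = 0.0302). That call held in 5 of 13 alternatives, and without day 7 replicate 2 the change was -0.87 (edgeR quasi-likelihood test, adjusted p = 0.843). In podocytes *Enpep* was 1504 TMM-scaled CPM in the control and 845 to 2396 in the injured libraries, and no comparison passed there either.

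**Figure D5:**
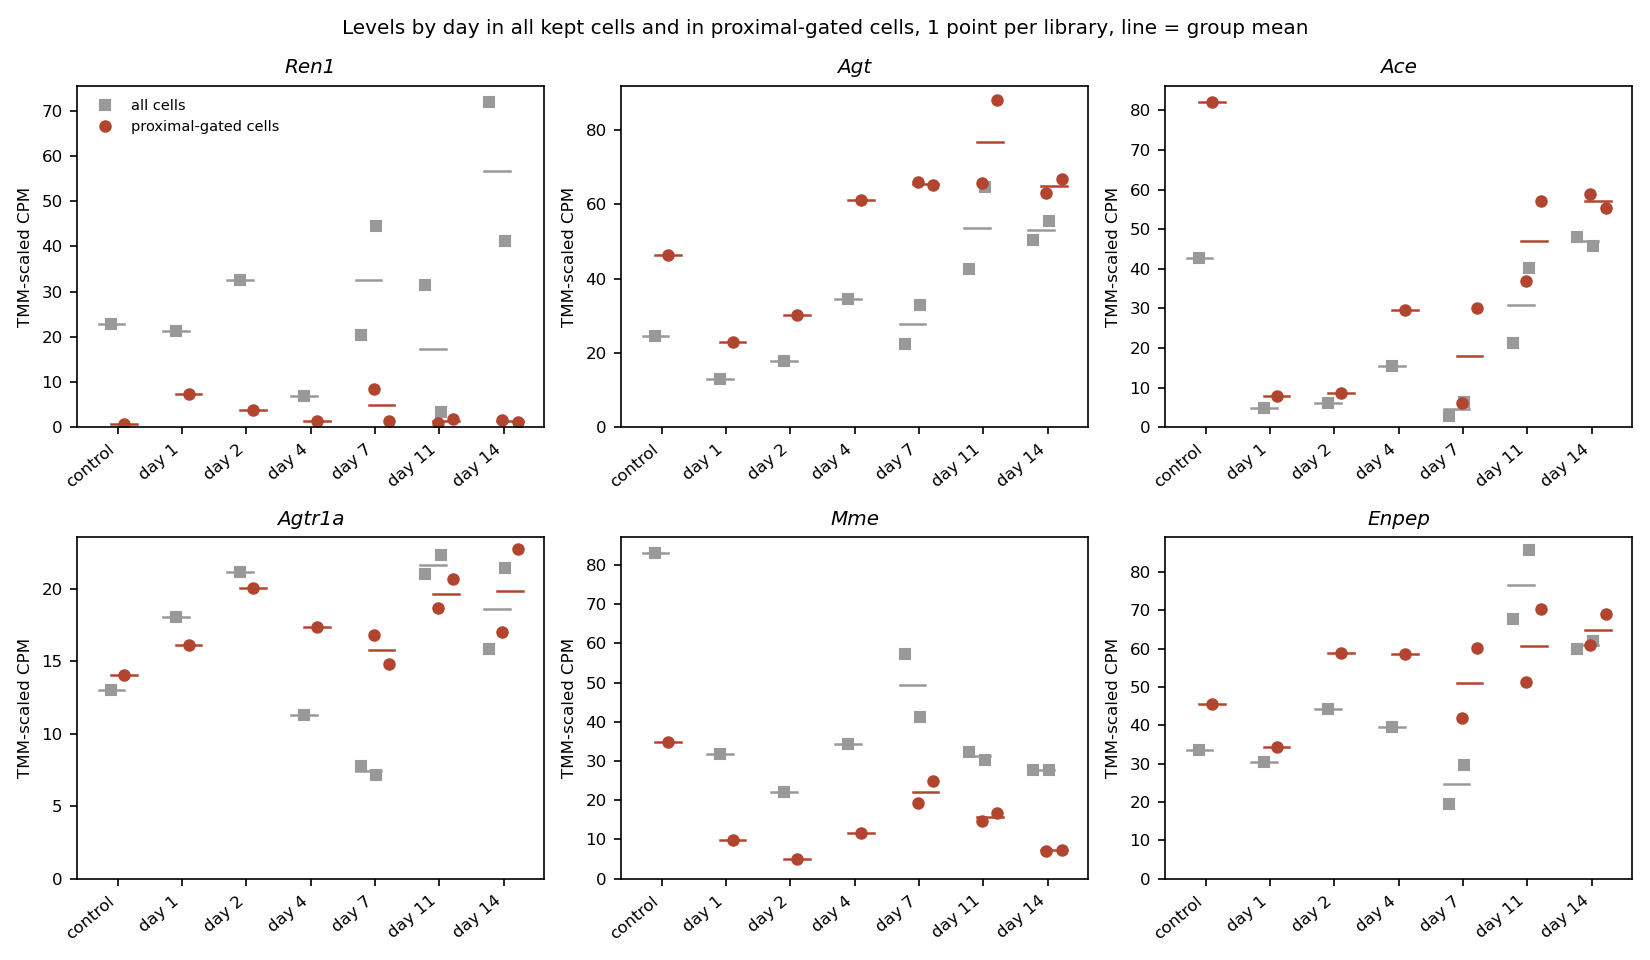
TMM-scaled CPM of each gene by day in all kept cells (squares) and in proximal-gated cells (circles), 1 point per library with the group mean as a line. *Ace* in all cells goes from 42.6 in the control to 2.86 and 6.31 at day 7, and back to 48.0 and 45.9 at day 14, while *Mme* goes from 83.1 to 27.7 and 27.8 at day 14.

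The genes were also summed over all kept cells, and in such sums fewer cells of a class and less RNA per cell cannot be told apart. From control to day 7, 3 of the 6 genes fell by edgeR's quasi-likelihood test, where 36.7% of all genes were called and 18.9% were called lower. These were *Ace* (-3.14, SE 0.39, adjusted p = 0.000101), *Agtr1a* (-0.81, adjusted p = 0.0218) and *Mme* (-0.76, adjusted p = 0.0197). *Agtr1a* and *Mme* were not called without day 7 replicate 2, and under scaling by total UMIs they were -0.11 and -0.05 and not called. *Agtr1a* was also lost with DESeq2, and *Mme* with at most 25% mitochondrial UMIs and when only these groups were fitted. *Agtr1a* was 13.0 TMM-scaled CPM in the control and 7.77 and 7.13 at day 7, and the proximal share of cells went from 61.4% to 8.56% and 9.24%.

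From day 7 to day 11, 4 of the 6 genes rose and 1 fell (edgeR quasi-likelihood test), where 44.7% of all genes were called, 22.2% as higher and 22.5% as lower. *Ace* rose by 2.66 (adjusted p = 0.000133), *Enpep* by 1.62 (adjusted p = 0.000141), *Agtr1a* by 1.54 (adjusted p = 0.000151) and *Agt* by 0.94 (adjusted p = 0.00782). *Mme* fell by 0.65 (adjusted p = 0.0173). *Enpep* went from 19.5 and 29.8 to 67.8 and 85.7 TMM-scaled CPM, and podocytes went from 0.525% and 0.757% to 3.97% and 2.97% of cells. Both day 11 libraries held a larger share of podocytes than any other library, with 1.11% in the control and 0.533% and 0.275% at day 14. Without day 7 replicate 1, and without day 11 replicate 2, *Agt* and *Mme* were no longer called, and *Mme* also not without day 11 replicate 1. Under scaling by total UMIs *Agt* was 0.28 and not called.

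From day 11 to day 14 none of the 6 genes passed edgeR's quasi-likelihood test where 18% of all genes did (1 of the 6, *Ren1*, at an unadjusted p under 0.05, and 0 by DESeq2). At day 14 against control, where 8.43% were called, *Mme* fell by 1.58 (SE 0.22, adjusted p = 0.00419) and *Agt* rose by 1.11 (SE 0.30, adjusted p = 0.0443). *Mme* passed in all 14 alternatives and *Agt* in 9, not without either day 14 library (adjusted p at most 0.155). *Agt* was 24.5 TMM-scaled CPM in the control and 50.5 and 55.5 at day 14, with proximal cells at 61.4% and at 74.5% and 74.3% of cells. *Enpep*, at 33.5 and at 59.99 and 62.1, did not pass (0.86, edgeR quasi-likelihood test, adjusted p = 0.0699). It was called in 5 of 14 alternatives, the replicate block among them.

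Of 21 other genes of the pathway, 20 were in the tables and 13 were tested in proximal-gated cells. From control to day 7 none rose and 4 fell by edgeR's quasi-likelihood test, where 26.6% of all genes were called and 13.9% were called lower: *Mas1*, the receptor of angiotensin-(1-7), by 2.18, *Anpep*, aminopeptidase N, by 1.93, the kallikrein *Klk1* by 0.98 and the neurolysin gene *Nln* by 0.87. The list's median was 0.15 against 0.02 over all genes tested. From day 7 to day 11 *Anpep* (1.55) and *Klk1* (1.37) rose and none fell, where 29.2% of all genes were called and 15.7% were called higher (list median -0.02, all genes -0.07).

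Between days 11 and 14 none of the 13 passed edgeR's quasi-likelihood test, 5 had an unadjusted p under 0.05 and DESeq2 called 0, where 10.8% of all genes were called (list median 0.25, all genes 0.01). At day 14 against control *Anpep* had fallen by 0.85, while *Dpp3* (0.79) and the carboxypeptidase *Prcp* (2.36) had risen, where 8.95% of all genes were called (list median 0.27, all genes 0.02). *Prcp* varied between libraries of 1 day, at 5.72 and 28.3 TMM-scaled CPM at day 11 and 48.8 and 27.7 at day 14. Every call of this list kept its sign under the 3 other scalings or tools tried, but several were lost. With scaling by total UMIs the changes of *Mas1*, *Nln* and *Klk1* at day 7 and the rise of *Klk1* at day 11 did not pass. With DESeq2 the same day 7 changes, and those of *Anpep* and *Dpp3* at day 14 against control, did not pass. With relative log expression scaling *Dpp3* and *Prcp* at day 14 against control did not pass.

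Of 6 other brush-border peptidases, 3 fell from control to day 7 by edgeR's quasi-likelihood test, where 13.9% of all genes were called lower: *Mep1b* by 3.53, *Ggt1* by 2.35 and *Mep1a* by 1.95. With DESeq2 *Mep1b* was -3.87 and did not pass (adjusted p = 0.0502). The 3 genes rose from day 7 to day 11, by 3.33, 1.70 and 1.74, where 15.7% were called higher. None of the 6 passed edgeR's test at day 14 against day 11 or against control, where 10.8% and 8.95% were, with 1 at an unadjusted p under 0.05 and 0 by DESeq2 in each. The list's median at day 14 against control was 0.43, beside the -2.27 of *Mme* and the -0.85 of *Anpep*.

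The genes with the most similar levels over the 109 sums of a class in a library (log2(CPM + 10), Pearson's r, 13308 genes) differed between the 6. They were *Rergl* (0.96), *Olfr558* (0.95) and *Slc22a3* (0.95) for *Ren1*, *Angpt2* (0.91), *Des* (0.90) and *Myl9* (0.89) for *Agtr1a*, and *Cdkn1c* (0.87), *Rhpn1* (0.87) and *Arvcf* (0.87) for *Enpep*. For *Mme* they were *Sh2d4a* (0.77), *Pard6b* (0.76) and *Gadd45a* (0.76), for *Ace* *Gm10804* (0.70), *Smlr1* (0.70) and *F13b* (0.70), and for *Agt* *Slc51b* (0.68), *Vil1* (0.67) and *Cml2* (0.67). Among the 6 genes themselves r was highest between *Ren1* and *Agtr1a* (0.77), followed by *Agt* and *Ace* (0.44), and lowest between *Agtr1a* and *Mme* (-0.39). The sums share libraries and depth, and these values are descriptions.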

How the data were processed

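Single-cell suspensions of mouse kidney cortex were put through Drop-seq by the authors, and the 3' ends of the cDNA were made into libraries by a modified Nextera XT protocol, per the labels' protocols. The deposited values are counts per gene and cell barcode, 1 table per library, read here as UMI counts. Bowtie2 2.2.7 and mm10 are named in the submitters' processing notes, and the annotation and the strand setting are not given in the sources used here. Both day 11 tables go down to 300 genes per barcode, and the filter at 500 genes removed 5362 and 5424 barcodes from them. No doublet caller was run. The 8715 cells that met no class's gate, for too few markers or for markers of several classes, stayed ungated.

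Counts were summed per library over all cells and over each gated class and tested with edgeR 4.0.16 in R 4.3.3 (filterByExpr, TMM scaling, quasi-likelihood F test, 1 term per group, 3 residual degrees of freedom, Benjamini-Hochberg adjustment over all genes tested, threshold 0.05). The SE is the absolute log2 change divided by the square root of F and restates the test. The lone control library is assumed to vary like the replicated days. edgeR draws each gene's spread toward that of the other genes tested, so that a p-value does not rest on the gene's own libraries alone. Days 1, 2 and 4 entered the fits but no comparison. Day 7 is shared by 2 of the 4 comparisons, as are day 11, day 14 and the control, so that these comparisons are not independent. Classes were compared over libraries with sums of at least 20000 UMIs by two-sided exact sign-flip tests. Intervals are exact 95% Poisson intervals and, like floors of 3 counts, cover counting error only. Alternatives were RLE scaling, DESeq2 1.42.0, no low-count filter, other gates and filters, a replicate block and leaving out libraries. Only edgeR's test of day 7 against control in proximal-gated cells was checked on simulated data, with changes put into genes of higher mean level. The sign-flip tests, the fit over both classes and the fits in other classes and segments were not simulated.

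The 6 genes, the marker and pathway lists and the rule for named genes (all 6 genes whatever their values, list genes past the threshold by size, and the 3 most similar genes, gate markers left out) were chosen with earlier results of these data known. 1 gene of the pathway list is not reported here, and the list's counts and medians leave it out. The segment split, the fits in thick limb, podocyte, endothelial and mural cells and scaling by total UMIs were added after the data had been seen. Replicate numbers did not pair the libraries across days. Between replicates of a day the spread exceeded sampling noise (chi-square per degree of freedom 14.8 to 28.1).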

Additional observations from a re-analysis of the deposited data

Results flagged for a closer look

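The log2 change of *Mme* differed between proximal-gated and thick limb-gated cells by -1.60 at day 14 against control and by -1.58 at day 14 against day 11, by a test of the difference itself (proximal minus thick limb). The first held in 7 of 7 alternatives (scaling by total UMIs and 1 library left out at a time), and the second was lost without day 11 replicate 2 (-1.37) or day 14 replicate 2 (-1.59). The log2 change of *Agt* from control to day 7 differed between the same classes by -2.64, with 3 *Agt* UMIs in the control's thick limb cells. That call was lost without day 7 replicate 2 (-1.62) and without day 14 replicate 1 (-2.57). The stricter gates, under which the rise of *Agt* in thick limb cells was not called, were not tried for this difference.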

How the results depend on the processing

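Over 88 tests of the 6 genes, 66 of 1312 values under alternatives changed sign (3 of them of the 22 changes that were called), 54 lost and 55 gained the call. These tests cover all 6 genes in proximal-gated cells and in all cells. Elsewhere they cover *Mme* and *Agt* in thick limb, *Agtr1a* in endothelial and *Ren1* in mural cells. In straight-type cells they cover *Agt*, *Ace*, *Mme* and *Enpep*, and in convoluted-type cells *Agt* and *Mme*. The other tests, those in podocytes among them, were not counted. Of 596 values of 41 chosen changes, most of them given in the text, 499 kept their direction and their side of the threshold, 58 lost and 30 gained the call, and 9 changed sign. Changes given in the text but left out of this count include *Ace* from control to day 7 in both segments. *Agt* from control to day 7 in proximal-gated cells was left out too. In proximal-gated cells the number of the 6 genes called from control to day 7 was 1, with 4 under scaling by total UMIs, 2 with no filter on low counts and 1 to 2 with a library left out. From day 7 to day 11 it was 0, with 1 under scaling by total UMIs, 1 with no filter, 1 with the replicate block (*Ace*, 1.21, edgeR quasi-likelihood test, adjusted p = 0.0310), 1 with mixed cells left out, 2 with injured tubule cells added and 0 to 2 with a library left out. From day 11 to day 14 it was 1, with 0 to 1 with a library left out, and at day 14 against control it was 1, with 2 when only these groups were fitted. Over all cells it was 3 from control to day 7, with 2 under scaling by total UMIs (*Agtr1a* and *Mme* lost, *Agt* gained), 2 with at most 25% mitochondrial UMIs and 2 when only these groups were fitted (*Mme* lost), 2 with DESeq2 (*Agtr1a* lost) and 2 to 3 with a library left out. From day 7 to day 11 it was 5, with 4 under scaling by total UMIs (*Agt* lost), 6 with no filter and 3 to 5 with a library left out. From day 11 to day 14 it was 0, with 2 with no filter and 0 to 1 with a library left out. At day 14 against control it was 2, with 1 under RLE scaling, 1 under scaling by total UMIs, 4 with no filter, 1 without days 1, 2 and 4, 4 when only these groups were fitted and 1 to 3 with a library left out.

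The changes of sign among the chosen changes were *Mme* in proximal-gated cells at day 7 under scaling by total UMIs (0.20), *Ren1* in mural-gated cells from control to day 7 without the top cell (-1.99) and with a library left out (-0.31 to 1.31), *Ren1* from day 7 to day 11 without the top cell (2.02) and with a library left out (-3.34 to 0.58), and 3 changes in straight-type cells without day 7 replicate 2. With a library left out, *Agt* ranged from -10.36 to 1.87 and *Enpep* from -0.87 to 1.33 from control to day 7, and *Mme* from -2.15 to 8.92 from day 7 to day 11. The 11 straight-type cells then left at day 7 held no *Agt* or *Mme* UMI, so that the fitted sizes are no bounds. The cause of the other changes was not tested.

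Scaling by total UMIs alone moved the median change of all genes to 0.82, -0.73 and 0.16 in proximal-gated cells (day 7 against control, day 11 against day 7, day 14 against control) and to 0.73, -0.74 and -0.10 over all cells (day 7 against control, day 11 against day 7, day 14 against day 11). The share of calls that were higher went from 53.6% to 13.7% and from 44.4% to 66.3% in the proximal comparisons of day 11 with day 7 and day 14 with control, and over all cells from 48.5% to 84.3%, 49.7% to 18.4%, 50.1% to 29.3% and, at day 14 against control, 56.0% to 41.1%.

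The replicate numbers did not pair the libraries (correlation of deviations 0.04, 0.00 and -0.05 between days). The replicate block also raised *Enpep* over all cells at day 14 (0.87, edgeR quasi-likelihood test, adjusted p = 0.0274) and *Ren1* in mural cells at day 14 (3.26 and 3.35) past the threshold. The number of class pairs in which the expected class was higher, 45, stayed within 39 to 48. Depth limits mural cells, where 22 to 102 cells per library carry the *Ren1* values, and day 7 straight-type cells.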
